A study of Mus musculus with 14 samples.

Results

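The 48 genes described here are cell cycle genes of the mouse: 26 that act in G1 and S phase (G1/S) and 22 that act in G2 phase and mitosis (G2/M). Each was found by its symbol among the 56414 genes of the deposited table, and all 48 were found. Their RNA was measured by bulk sequencing of polyA RNA from 14 mammary tumors of C57Bl/6 mice, with 1 library per tumor. M/D-driven tumors arose in female mice that received a 50 mg slow-release pellet of medroxyprogesterone acetate (MPA, a progestin) at 6 to 9 weeks of age and then 6 oral doses of the carcinogen 7,12-dimethylbenz[a]anthracene (DMBA). AT3 tumors grew from 1000000 cells of the AT3 mammary carcinoma line, a single line, injected under the skin of female mice, whose age is given only as 1 range for all mice of the study. Mice were left untreated or received nicotinamide (NAM, a form of vitamin B3) at 0.5% in the drinking water for 10 days from a tumor area of 0.25 cm2. Each M/D-driven group held 4 tumors and each AT3 group 3.

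Cells enter the cycle when D-type cyclins activate Cdk4 and Cdk6 and the retinoblastoma protein releases E2F transcription factors. E2F factors switch on cyclin E, the Mcm helicase and its loaders, and the enzymes that make DNA precursors, so that origins are licensed and DNA is copied. Later, the DREAM and MuvB complexes with Mybl2 and Foxm1 control the genes of mitosis: Cdk1 with cyclins A and B, the Aurora and Polo kinases, spindle motors, checkpoint proteins and the centromere. The transcripts of both phases are high in proliferating tissue and low in resting tissue, and cyclin D1 is best known in the mammary gland for its role in lobuloalveolar growth and in luminal breast cancer.

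The files do not tell fewer cycling cells apart from less RNA per cycling cell, and neither do they assign transcripts to cancer or host cells. Recovered reads ranged from 40936868 to 84178009 per tumor, and all members had a mean of at least 10 normalized counts in some group. The rows of Mybl2 and Plk1 are joined in the table to Mir7003 and Dctn5, respectively, so that their reads cannot be told apart from those of the neighbor. NAM-treated M/D tumor 1 went against its label as a mammary tumor. The summed normalized count of 10 epithelial markers was 8538 in this tumor and 278685 to 1044040 in the 7 other M/D-driven tumors. Each of the 10 was lowest of 8 there, while the sum of 6 markers of precursor lymphocytes (Vpreb1, Vpreb3, Igll1, Rag1, Rag2 and Dntt) was 203120 against 647 to 1355. Of these 6, 5 were highest of 8 there. Rag1, whose row is joined to a neighbor, was lowest there (475 normalized counts, against 623 to 1337 in the others). The labels also place this tumor in experiment 2, and the 7 others in experiment 1. The main calls and the direction of fold changes over the members in M/D-driven tumors are therefore given with and without it. Other results with NAM-treated M/D tumors, also those of other cell cycle genes, include it unless stated otherwise. NAM-treated M/D tumor 4 had the highest sum of 4 skeletal muscle markers, 218203 normalized counts against 131 to 66499 in the other 7. AT3 tumors, as a carcinoma line, had epithelial sums of 73829 to 101896.

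To show what G1/S and G2/M genes share beyond their names, promoters of RefSeq (build GRCm38.p6) were searched on both strands over 250 bases before and 50 bases after the start. The words were the cell cycle homology region (CHR) TTTGAA, which binds MuvB complexes, the CCAAT box, and any of 4 E2F words: TTTGGCG as first choice of letters, TTTCCCG as another, TTTCGCG as another, and TTTGCCG as the last. A promoter was given for 37 of the 48 members. The CHR word was found in 12 of 17 G2/M members (70.6%) and in 3 of 20 G1/S members (15%), against 20.2% of all 27018 genes with a promoter. E2F words were found in 9 of 20 G1/S members (45%) and in 2 of 17 G2/M members (11.8%), against 7.65% of all genes. The CCAAT box was found in 88.2% of G2/M members, 65% of G1/S members and 41.1% of all genes. Both a CHR and a CCAAT word were found in 70.6% of G2/M members, 15% of G1/S members and 7.97% of all genes. Among the genes of the same phases outside the members, the CHR word was found in 19 of 29 G2/M genes (65.5%) and 7 of 25 G1/S genes (28%), and E2F words in 17.2% and 48%.

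The last 170 bases before the start are shown for 7 members, in the direction of the gene, with CHR, CCAAT and E2F words of either strand in capitals. E2F words can overlap each other and then form a longer run. Cdk1, Cdc20, Ube2c and Kif11 are shown for the pairing of CHR and CCAAT words, Mcm5 and Mcm6 for their E2F words, and Birc5 as a member that was lower in M/D-driven than in AT3 tumors with and without NAM, without a CHR or CCAAT word in its window.
Cdk1, the mitotic kinase, chr10:69352913-69353082, minus strand: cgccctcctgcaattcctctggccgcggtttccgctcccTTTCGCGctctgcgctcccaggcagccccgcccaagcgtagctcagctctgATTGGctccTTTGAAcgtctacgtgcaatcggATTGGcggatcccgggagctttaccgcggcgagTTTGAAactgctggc
Cdc20, an activator of the anaphase-promoting complex, chr4:118437344-118437513, minus strand: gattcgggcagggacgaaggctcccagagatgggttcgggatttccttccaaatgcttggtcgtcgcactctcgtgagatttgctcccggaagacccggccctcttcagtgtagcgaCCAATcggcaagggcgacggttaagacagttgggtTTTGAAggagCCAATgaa
Ube2c, the ubiquitin-conjugating enzyme of that complex, chr2:164769759-164769928, plus strand: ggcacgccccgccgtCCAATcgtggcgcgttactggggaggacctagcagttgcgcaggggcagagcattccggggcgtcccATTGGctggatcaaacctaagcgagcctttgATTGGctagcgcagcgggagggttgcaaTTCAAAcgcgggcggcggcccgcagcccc
Kif11, a spindle motor, chr19:37376212-37376381, plus strand: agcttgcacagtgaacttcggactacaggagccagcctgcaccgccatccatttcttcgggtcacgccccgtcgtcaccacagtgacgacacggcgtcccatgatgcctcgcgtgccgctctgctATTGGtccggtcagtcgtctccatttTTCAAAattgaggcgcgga
Mcm5, a helicase subunit, chr8:75109339-75109508, plus strand: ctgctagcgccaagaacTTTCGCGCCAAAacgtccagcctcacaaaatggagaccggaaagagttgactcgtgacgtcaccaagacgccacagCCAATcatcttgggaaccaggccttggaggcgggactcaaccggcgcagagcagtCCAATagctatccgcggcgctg
Mcm6, a helicase subunit, chr1:128359706-128359875, minus strand: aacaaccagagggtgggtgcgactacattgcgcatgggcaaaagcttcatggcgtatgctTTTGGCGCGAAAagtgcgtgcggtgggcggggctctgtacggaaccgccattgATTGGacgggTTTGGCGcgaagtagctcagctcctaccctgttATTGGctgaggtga
Birc5 (survivin), a subunit of the chromosomal passenger complex, chr11:117849067-117849236, plus strand: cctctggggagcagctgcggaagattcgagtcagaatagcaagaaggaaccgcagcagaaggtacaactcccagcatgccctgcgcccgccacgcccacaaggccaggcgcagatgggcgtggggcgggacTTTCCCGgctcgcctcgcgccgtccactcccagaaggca
These words are a description of the promoters, and no binding was measured.

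Members differed more between M/D-driven tumors than between AT3 tumors. Among the 4 untreated M/D-driven tumors, the median SD of log2(normalized count + 1) was 0.66 over G2/M members and 0.46 over G1/S members, against 0.41 over all genes. Among the 3 untreated AT3 tumors, it was 0.28 and 0.25, against 0.43 over all genes. A level per tumor was taken as the mean over the genes of a phase of log2(normalized count + 1) minus the gene's mean over the tumors of the model. In M/D-driven tumors, the G1/S level was highest in NAM-treated tumor 1 (1.26), followed by untreated tumors 1 (0.40) and 2 (0.13) around NAM-treated tumor 3 (0.14), and was lowest in NAM-treated tumor 4 (-0.88). The G2/M level spanned from 1.51 in NAM-treated tumor 1 to -1.27 in NAM-treated tumor 4, with untreated tumors between -0.83 and 0.63. Thus, the NAM-treated group held both ends of the range for either phase. NAM-treated tumor 1 was the highest of 8 tumors for 46 of the 48 members, against 28.1% of all genes tested, and NAM-treated tumor 4 the lowest for 41, against 16.7%. In AT3 tumors, the G1/S level ranged from -0.21 to -0.08 in untreated and from 0.07 to 0.25 in NAM-treated tumors, and the G2/M level from -0.37 to -0.03 and from 0.09 to 0.27.

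**Figure D1:**
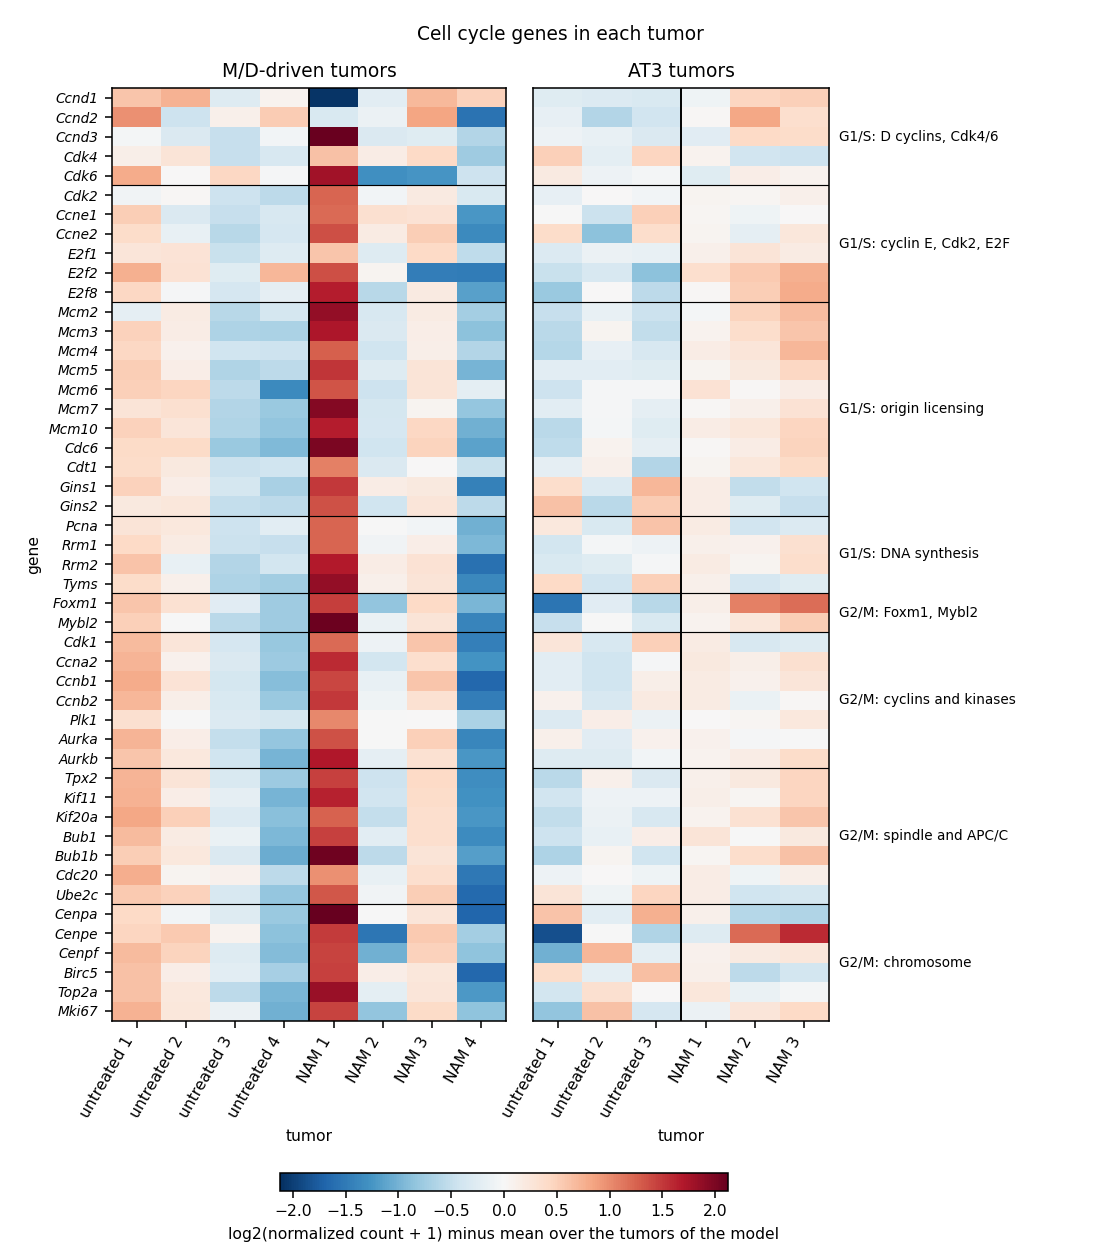
Heat map of 48 cell cycle genes (rows, grouped by role) in 8 M/D-driven and 6 AT3 tumors (columns), colored by log2(normalized count + 1) minus the mean of the gene over the tumors of the model. NAM-treated M/D tumor 1 is high for all rows but Ccnd1 and Ccnd2, NAM-treated M/D tumor 4 is low for most, and AT3 tumors vary less.

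The first comparison asked whether NAM changed the cell cycle genes of M/D-driven tumors. A gene was called when its fold change reached 1.5 with an unadjusted limma p of 0.05 or less. Of the 48 members, 0 were called higher and 0 lower with NAM, where 3.03% and 3.19% of the 21700 genes tested were called. At an unadjusted p of 0.05 alone, 0 members passed with limma (6.71% of all genes), edgeR and DESeq2, the last of which tested 46, and 0 passed an adjusted p (0.00461%). With the trend with transcript length and GC removed, 0 members were higher and 0 lower (2.43% and 3.17%). The log2 fold change was above 0 for 41 of 48 members, with a median of 0.27 over G1/S and 0.12 over G2/M members against 0.01 over all genes. Without NAM-treated tumor 1, it was below 0 for 44 of 48 members, with medians of -0.17 and -0.36, and 0 members were higher while Cdk6 and E2f2 were lower (background 2.85% and 2.33%). Leaving out that tumor thus turned the direction of most members. Of the NAM-treated tumors left, only tumor 4 had levels below the untreated range (-0.88 for G1/S and -1.27 for G2/M). Tumors 2 and 3 lay within that range, at -0.21 and 0.14 for G1/S and at -0.35 and 0.38 for G2/M. The untreated range was -0.45 to 0.40 for G1/S and -0.83 to 0.63 for G2/M. With NAM-treated tumor 1 included, groups overlapped for all 48 members, whereas they were apart for 4.43% of all genes.

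Among genes of cell cycle entry, Ccnd1 (cyclin D1) had 12702, 14042, 6973 and 8876 normalized counts in untreated tumors 1 to 4, and 1985, 7189, 13640 and 11839 in NAM-treated tumors 1 to 4. The 3 NAM-treated tumors of experiment 1 lay within the untreated range, and tumor 1 was the lowest of 8. For Ccnd1, the log2 fold change was -0.57 ± 0.58 (SE), and 0.04 without tumor 1. Ccnd2 (cyclin D2) had 3235, 1215, 1788 and 2405 normalized counts in untreated and 1321, 1521, 2958 and 559 in NAM-treated tumors. The groups overlapped (log2 fold change -0.59 ± 0.51, SE). Ccnd3 (cyclin D3) was at 13730 normalized counts in NAM-treated tumor 1 and at 2091 to 3140 in the 7 others. In that tumor, the order of Ccnd1 and Ccnd3 was thus opposite to that of the other 7, on counts not scaled by length. Cdk6, a partner of D cyclins, had 326 to 573 normalized counts in untreated tumors, and 1133, 133, 138 and 245 in NAM-treated tumors. Tumor 1 was the highest and the other 3 were below all untreated tumors, and the log2 fold change went from -0.61 to -1.30 (adjusted p = 0.81, limma with Benjamini-Hochberg adjustment) without it. E2f2, an activating E2F, showed 995, 725, 490 and 957 normalized counts in untreated and 1524, 614, 213 and 210 in NAM-treated tumors. The log2 fold change of E2f2 was -0.75 ± 0.64 (SE) with, and -1.34 (adjusted p = 0.81, same test) without tumor 1. Cdk4 had a log2 fold change of 0.22.

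Other G1/S members shared the pattern of 1 high and 1 low NAM-treated tumor. Ccne1 (cyclin E1), which drives entry into S phase with Cdk2, had 1220, 688, 608 and 674 normalized counts in untreated and 1960, 1085, 1061 and 363 in NAM-treated tumors. Untreated tumor 1 stood apart from the 3 others, and the groups overlapped (log2 fold change 0.31 ± 0.50, SE). E2f1 was at 1054, 1078, 632 and 727 normalized counts in untreated and 1324, 728, 1185 and 610 in NAM-treated tumors. Mcm2, a subunit of the replicative helicase, was at 5144, 6655, 3891 and 4515 in untreated tumors. With NAM, it was at 21403, 4642, 6598 and 3576, so that 3 of 4 values fell in or just under the untreated range. Rrm2, the regulated subunit of ribonucleotide reductase, was at 5620, 3321, 2402 and 2830 normalized counts in untreated and 11828, 4137, 4581 and 1235 in NAM-treated tumors. All 11 members of origin licensing and firing (Mcm2 to Mcm7, Mcm10, Cdc6, Cdt1, Gins1 and Gins2) had a log2 fold change above 0, from 0.14 to 0.49, and 10 of 11 were below 0 without tumor 1. The 4 genes of DNA synthesis (Pcna, Rrm1, Rrm2 and Tyms) ranged from 0.08 to 0.45, and were all below 0 without it.

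The G2/M members followed the tumors in the same way. Cdk1 had 8069, 6083, 3955 and 2922 normalized counts in untreated and 11750, 4708, 7605 and 1864 in NAM-treated tumors. Ccnb1 (cyclin B1), its partner at mitotic entry, had 3814, 2685, 1703 and 1180 in untreated and 5851, 1973, 3296 and 696 in NAM-treated tumors. For both genes, 2 NAM-treated tumors lay inside the untreated range, with 1 above and 1 below. Foxm1, the forkhead factor of mitotic genes, was at 1309, 1089, 735 and 520 normalized counts in untreated and at 2416, 491, 1174 and 444 in NAM-treated tumors. Plk1, the Polo kinase, was at 11852, 9331, 7672 and 7260 in untreated and at 19104, 9368, 9507 and 5885 in NAM-treated tumors. Mki67, which encodes the proliferation antigen Ki-67, was at 7755, 5467, 4250 and 2294 in untreated tumors. With NAM, it was at 12572, 2601, 6140 and 2568 (log2 fold change 0.08 ± 0.58, SE, and -0.39 without tumor 1). Over the 22 members, log2 fold changes spanned -0.18 (Cdc20) to 0.41 (Mybl2), and -0.61 (Cenpe) to -0.14 (Plk1) without tumor 1.

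**Figure D2:**
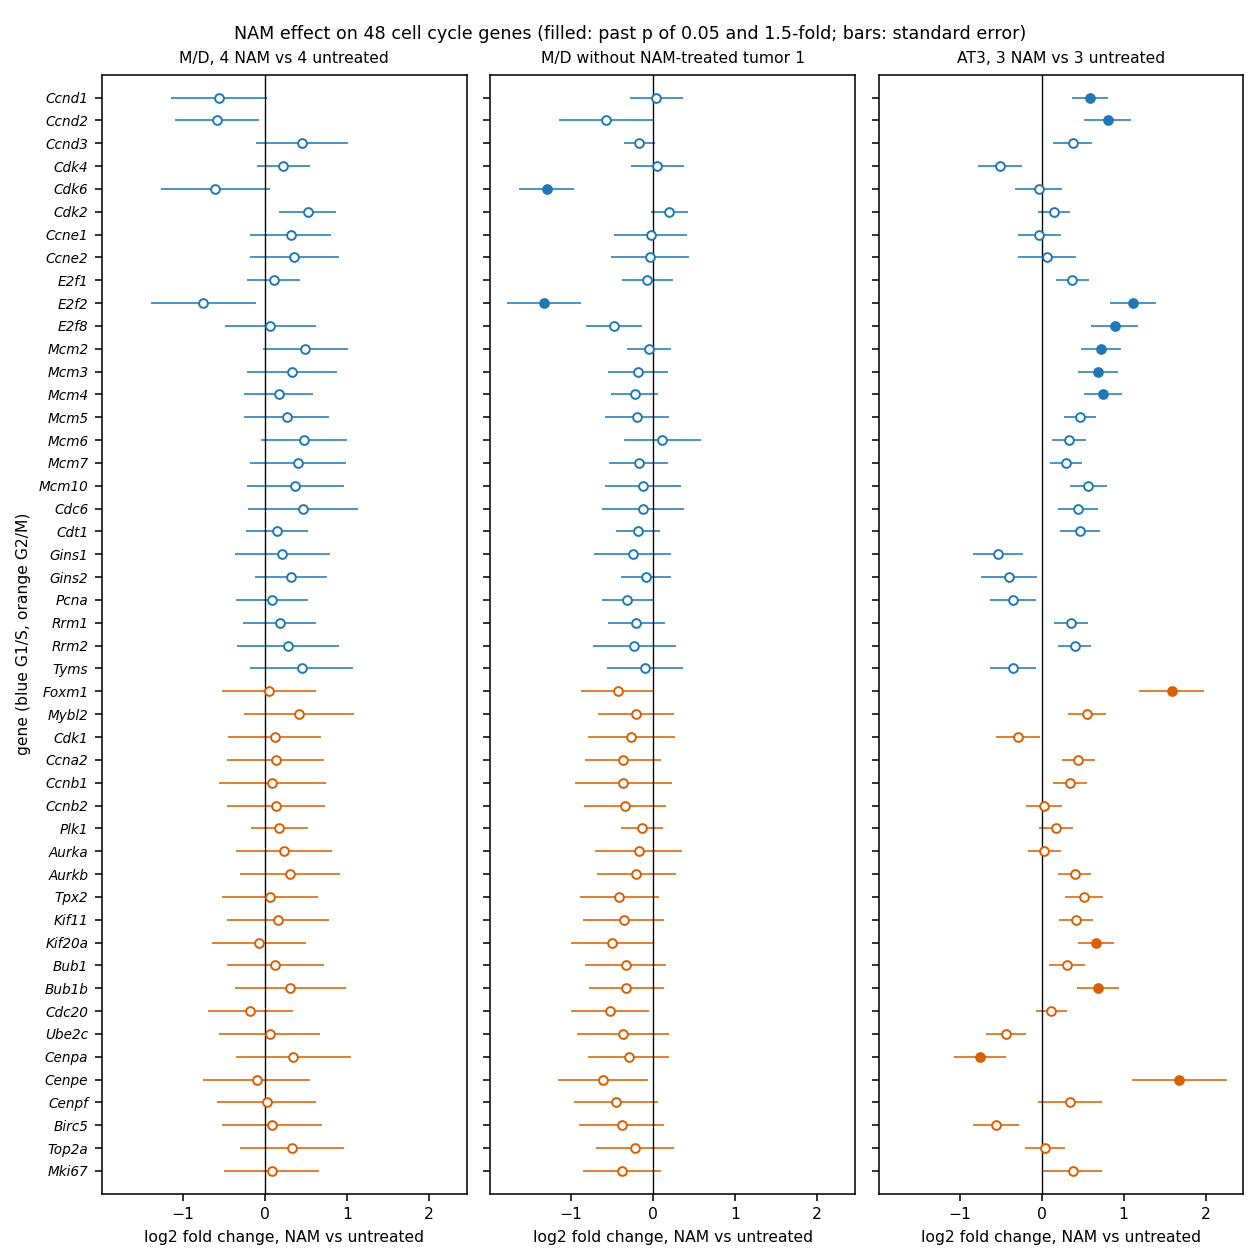
Log2 fold change of NAM-treated against untreated tumors (horizontal axis) with its standard error for 48 cell cycle genes (vertical axis), in M/D-driven tumors, in the same tumors without NAM-treated tumor 1, and in AT3 tumors. Filled circles passed an unadjusted p of 0.05 and a fold change of 1.5, which were 0, 2 and 12 genes.

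The same comparison was made in AT3 tumors. Here 11 members were higher with NAM (Ccnd1, Ccnd2, E2f2, E2f8, Mcm2, Mcm3, Mcm4, Foxm1, Kif20a, Bub1b and Cenpe) and 1 was lower (Cenpa), against 12.2% and 10.9% of the 19281 genes tested. No member passed an adjusted p of 0.05 with limma (smallest 0.17, Benjamini-Hochberg; 0.00519% of all genes) or edgeR, while 15 (24.3% of all genes) and 16 passed an unadjusted p of 0.05, and 7 of 48 passed an adjusted p with DESeq2 (12.6% of the 16280 genes with an adjusted p there). The adjusted p of the 12 called members ranged from 0.166 to 0.195 (limma, Benjamini-Hochberg). NAM-treated tumors were all above untreated tumors for 22 members and all below for 0, against 11.7% and 11% of all genes. The median log2 fold change was 0.38 over G1/S and 0.35 over G2/M members, against -0.05 over all genes. Counts leaned on single tumors: without untreated tumor 1, 3 members were higher (Ccnd2, E2f2 and Foxm1) and 0 lower, and without untreated tumor 2, 17 were higher and 7 lower. Without untreated tumor 3, NAM-treated tumor 1, 2 or 3, it was 7, 14, 5 and 3 higher and 0, 5, 0 and 0 lower. E2f2 and Foxm1 alone passed in each of these fits. Markers of other cell types moved with NAM in the same tumors. The summed normalized count of 10 leukocyte markers was 8413 to 9912 in untreated and 10710 to 12339 in NAM-treated AT3 tumors, with 4 of the 10 called higher and 2 lower. That of 4 endothelial markers was 2682 to 3829 and 4052 to 6439, with 3 higher and 1 lower. The sums did not overlap for these lists and overlapped for the epithelial, fibroblast, adipocyte, precursor lymphocyte and muscle lists, and Rag2 alone among all markers was at 0 in every AT3 tumor. These sums and calls come from values that still hold the trend with transcript length described below. The part of other cell types in the results of AT3 tumors was not tested.

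The fold changes with NAM in AT3 tumors moved with transcript length. Across the 16429 genes with a length (longest GENCODE transcript), Spearman's rho between length and log2 fold change was 0.59, and it was 0.37 across the 48 members, given here as a description across genes of the same libraries. In M/D-driven tumors, these values were -0.04 and -0.14. Of the 24 members at or above the median length of 3620 bases, 8 were higher and 1 lower with NAM in AT3 tumors, against 3 and 0 of the 24 shorter ones. Over all genes, the median log2 fold change was -0.90 in the shortest bin of length and 0.75 in the longest. The share of all genes called is not given by length. After each AT3 tumor was freed of its trend with length and GC, 7 members were higher (E2f8, Mcm4, Rrm2, Foxm1, Ccnb1, Aurkb and Cenpe) and 3 lower (Cdk6, Cenpa and Birc5), against 7.91% and 7.93% of all genes. E2f8, Mcm4, Foxm1, Cenpe and Cenpa passed with and without the trend. The length used was that of the longest transcript, 3806 bases for Cenpa and 3334 for Birc5. Which transcript the tumors expressed was not measured, so a trend with length can remain in single genes after the removal. The part of length in these results was not tested.

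**Figure D3:**
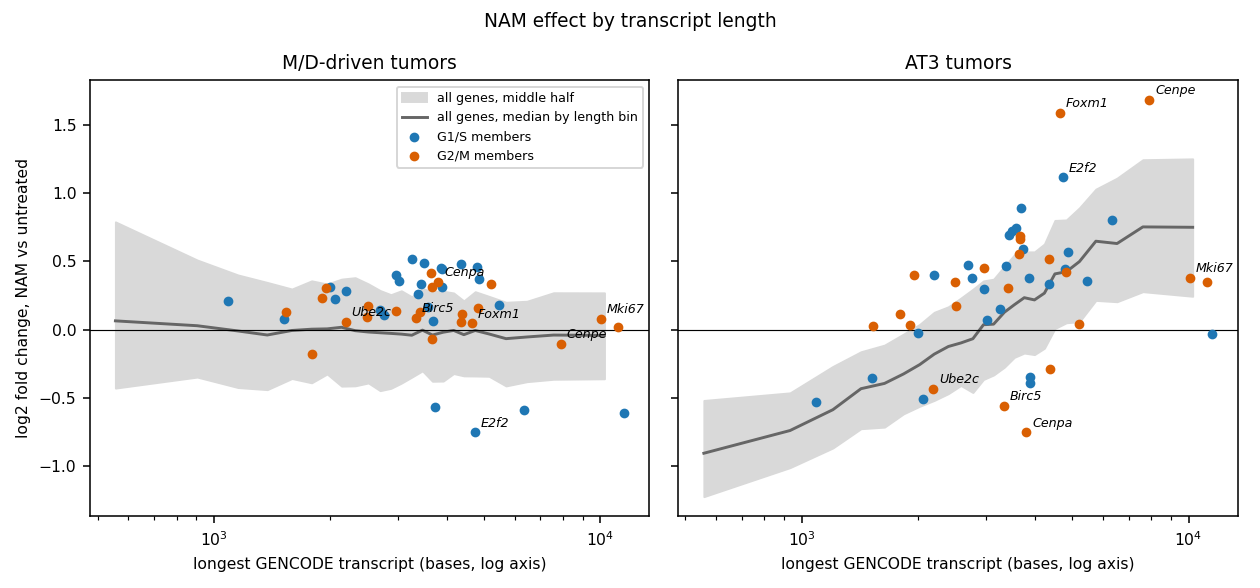
Log2 fold change with NAM (vertical axis) by length of the longest transcript in bases (horizontal log axis) for G1/S members (blue) and G2/M members (orange), with the median and quartiles of all genes in 25 bins of length (gray). In AT3 tumors the median of all genes rises with length and in M/D-driven tumors it stays near 0.

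Of the genes of cell cycle entry in AT3 tumors, Ccnd1 was at 3265, 3198 and 3112 normalized counts in untreated and at 3680, 5386 and 5568 in NAM-treated tumors. The groups did not overlap, and NAM-treated tumor 1 was the closest to the untreated ones (log2 fold change 0.59 ± 0.22, SE). Ccnd2 went from 230, 169 and 198 to 266, 462 and 335 normalized counts (0.80 ± 0.29). Its groups did not overlap either, whereas after removal of the length trend Ccnd1 and Ccnd2 had log2 fold changes of 0.32 and 0.18 and were not called. Ccnd3, Cdk4 and Cdk6 had log2 fold changes of 0.38, -0.51 and -0.03 and did not pass the thresholds.

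E2f2 was at 117, 129 and 88.7 normalized counts in untreated AT3 tumors and at 209, 240 and 276 in NAM-treated ones. All NAM-treated tumors were above all untreated tumors (log2 fold change 1.11 ± 0.29, SE, adjusted p = 0.17, limma with Benjamini-Hochberg adjustment). E2f8, an atypical E2F that represses E2F targets late in S phase, went from 984, 1702 and 1156 to 1725, 2446 and 2919 normalized counts (0.89 ± 0.29). Here the lowest NAM-treated and the highest untreated tumor were nearly equal. E2f1 was at 971, 1101 and 1075 in untreated and at 1284, 1450 and 1348 in NAM-treated tumors. Although its groups did not overlap, the log2 fold change of 0.38 ± 0.20 (SE) did not pass the thresholds. Ccne1 was at 1183, 876 and 1695 in untreated and at 1230, 1124 and 1204 in NAM-treated tumors, so that all NAM-treated values fell in the untreated range (-0.03 ± 0.27, SE). Cdk2 and Ccne2 had log2 fold changes of 0.15 and 0.07.

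Of the 11 genes of origin licensing and firing, 3 were higher in NAM-treated AT3 tumors and 9 had a log2 fold change above 0. Mcm2 went from 3245, 4065 and 3315 to 4380, 6320 and 7142 normalized counts (log2 fold change 0.73 ± 0.24, SE). Mcm3 went from 3251, 4992 and 3371 to 5107, 6232 and 7223 (0.69 ± 0.24). Mcm4 went from 1001, 1356 and 1207 to 1705, 1835 and 2476 (0.75 ± 0.23). The groups did not overlap for these 3 helicase subunits, and for 7 of the 11 genes in all. The other subunits, Mcm5, Mcm6 and Mcm7, had log2 fold changes of 0.46, 0.33 and 0.30, and Mcm10, Cdc6 and Cdt1, which act in loading and firing, of 0.57, 0.45 and 0.47. The GINS subunits Gins1 (-0.53) and Gins2 (-0.39) were below 0. Among the genes of DNA synthesis, Rrm2 was at 3432, 3614 and 4210 in untreated and at 4841, 4451 and 5595 in NAM-treated tumors, with groups apart and a log2 fold change of 0.40 ± 0.20 (SE) that passed only after removal of the length trend (0.72). Pcna (the sliding clamp), Rrm1 and Tyms (thymidylate synthase) had -0.35, 0.36 and -0.35.

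In G2/M, the largest changes were those of Foxm1 and Cenpe. Foxm1 was at 239, 593 and 463 normalized counts in untreated AT3 tumors and at 764, 1465 and 1591 in NAM-treated tumors. The groups did not overlap and untreated tumor 1 was the lowest (log2 fold change 1.58 ± 0.40, SE, adjusted p = 0.17, limma with Benjamini-Hochberg adjustment). Cenpe, the kinetochore motor CENP-E, was at 56.5, 208 and 133 in untreated and at 174, 484 and 627 in NAM-treated tumors. Its groups overlapped, since NAM-treated tumor 1 was below untreated tumor 2 (1.68 ± 0.58), and without untreated tumor 1 the log2 fold change was 1.16. Kif20a, a kinesin of cytokinesis, went from 3420, 4484 and 3889 to 5165, 6150 and 7413 normalized counts (0.66 ± 0.22). Bub1b, the checkpoint protein BubR1, went from 2672, 4397 and 3135 to 4347, 5449 and 6485 (0.69 ± 0.26), with NAM-treated tumor 1 just below untreated tumor 2. Cenpa, the centromeric histone H3 variant, was the only member called lower, with 11938, 6694 and 13249 in untreated and 8458, 5186 and 5062 in NAM-treated tumors. Untreated tumor 2 lay between the NAM-treated ones (-0.75 ± 0.32).

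Of the 7 kinases and cyclins of mitotic entry, 0 passed the thresholds with NAM in AT3 tumors. Cdk1 was at 13734, 9072 and 16328 normalized counts in untreated and at 12979, 9080 and 9483 in NAM-treated tumors (log2 fold change -0.29 ± 0.27, SE). Ccnb1 was at 2596, 2269 and 3281 in untreated and at 3395, 3234 and 3619 in NAM-treated tumors (0.35 ± 0.21). Its groups overlapped, and it passed only after removal of the length trend (0.63). Plk1 was at 8692, 11709 and 9716 in untreated and at 10669, 10849 and 12327 in NAM-treated tumors (0.18 ± 0.20). Mki67 was at 2726, 7510 and 3817 in untreated and at 4493, 5852 and 6520 in NAM-treated tumors, all of which lay between untreated tumors 3 and 2. Its log2 fold change of 0.38 ± 0.36 (SE) turned to -0.41 when the length trend was removed. The remaining G2/M members ranged from -0.56 (Birc5) to 0.55 (Mybl2), and 0 of them passed the thresholds.

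A model with an interaction term tested whether the NAM effect differed between M/D-driven and AT3 tumors. Only E2f2 passed the thresholds, where 6.97% of all genes were called higher and 7.9% lower in M/D-driven tumors, and 0 members and 0% of all genes passed an adjusted p of 0.05. Its log2 fold change with NAM was 1.87 lower in M/D-driven than in AT3 tumors (-1.87 ± 0.80, SE, adjusted p = 0.31, limma with Benjamini-Hochberg adjustment). This was -2.45 (limma adjusted p = 0.15) without NAM-treated M/D tumor 1, and -1.20 with the length trend removed, so that E2f2 was no longer called. Without tumor 1, Cdk6, E2f8, Mcm4, Foxm1 and Cenpe joined E2f2, for 6 members lower and 0 higher against 9.55% and 7.32% of all genes. With the length trend removed, 0 members passed. E2f2 also lost its call without untreated M/D tumor 1 or 4, NAM-treated M/D tumor 3 or 4, untreated AT3 tumor 1 or 3, or NAM-treated AT3 tumor 2 or 3. Without NAM-treated M/D tumor 4, 4 members were higher in M/D-driven tumors, and without NAM-treated AT3 tumor 1 or untreated M/D tumor 2, 4 and 2 were lower.

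To compare the models, reads were scaled to library size as CPM with TMM factors over all 14 tumors. Model and experiment cannot be told apart in these data. Untreated M/D-driven tumors had 6 members higher than untreated AT3 tumors (Ccnd1, Ccnd2, Cdk6, E2f2, Mcm4 and Cenpe) and 10 lower (Cdk4, Gins1, Pcna, Tyms, Cdk1, Ccnb2, Aurka, Ube2c, Cenpa and Birc5), against 25% and 17% of the 22710 genes tested. Of the 48 members, 10 passed an adjusted p of 0.05 (limma, Benjamini-Hochberg), all among these 16, against 41% of all genes. With the length trend removed, 1 member was higher and 19 lower, against 17.9% and 26.5% of all genes, and the 10 lower ones were kept. Without NAM-treated M/D tumor 1, which is in neither of these groups but was part of the fit over all tumors, 7 were higher and 14 lower (27% and 17.9% of all genes). Counts of higher members fell to 3 without untreated M/D tumor 1 or 2 or untreated AT3 tumor 1 or 3, and those of lower members to 6 without untreated M/D tumor 4 and 5 without untreated AT3 tumor 3. Between NAM-treated tumors, 1 member was higher in the M/D model (Ccnd2) and 8 were lower (E2f1, Cdk1, Ccna2, Ccnb2, Aurka, Aurkb, Ube2c and Birc5), against 12.6% and 10.4% of all genes. Of the 48 members, 2 passed a limma adjusted p of 0.05 (Birc5 and Ccnd2), against 13.1% of all genes. With the length trend removed, 1 member was higher and 11 lower (11.1% and 16.9%). Without NAM-treated M/D tumor 1, it was 2 higher and 32 lower (background 15.7% and 11.6%), with 18 of 22 G2/M and 14 of 26 G1/S members among the latter. Without NAM-treated M/D tumor 2 or 4 it was 5 and 3 lower, and without NAM-treated AT3 tumor 1, 2 or 3 it was 3, 5 and 4.

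Ccnd2 was higher and Cdk1, Ccnb2, Aurka, Ube2c and Birc5 were lower in M/D-driven tumors in both contrasts (9.68% and 7.53% of all genes). Of these 6, Ccnd2 and Birc5 alone were called in both contrasts whichever tumor was left out. Between NAM-treated tumors, Cdk1, Ccnb2 and Aurka were no longer called without M/D tumor 4, with differences of -0.83, -0.78 and -0.80, nor was Ube2c without AT3 tumor 1 (-1.34). Ccnd2 was at 54.6, 20.8, 30.1 and 39.7 CPM in untreated M/D-driven tumors and at 4.48, 3.36 and 3.98 CPM in untreated AT3 tumors. The groups were far apart (log2 difference on log2(CPM + 1) of 2.84 ± 0.46, SE, adjusted p = 0.00064 by limma). In NAM-treated tumors, it was at 21.2, 25.2, 49.4 and 8.83 CPM in the M/D and at 5.44, 9.82 and 7.07 CPM in the AT3 model, where M/D tumor 4 lay below AT3 tumor 2 (1.49 ± 0.46, adjusted p = 0.049). Birc5 was at 98.1, 71.5, 54.8 and 38.5 CPM in untreated M/D-driven and at 377, 257 and 466 CPM in untreated AT3 tumors (-2.50 ± 0.55, SE, adjusted p = 0.0038 by limma). In NAM-treated tumors it was at 167, 69.1, 74.8 and 19 CPM against 327, 213 and 239 CPM, again without overlap (-1.98 ± 0.55, adjusted p = 0.032). Ube2c was at 133, 128, 71.6 and 49.9 CPM in untreated M/D-driven tumors and at 333, 265 and 387 CPM in untreated AT3 tumors, a difference of -1.86. Cdk1 was at 136, 104, 66.6 and 48.2 CPM in untreated M/D-driven tumors and at 267, 181 and 329 CPM in untreated AT3 tumors. The log2 differences of Cdk1 were -1.60 and -1.32, those of Ccnb2 -1.26 and -1.28, and those of the kinase Aurka -1.35 and -1.28, between untreated and between NAM-treated tumors. Without NAM-treated M/D tumor 1, the differences between NAM-treated tumors were -1.69 for Cdk1, -1.74 for Ccnb2, -1.67 for Aurka and -2.44 for Birc5. Ccnd1 was at 214, 240, 117 and 147 CPM in untreated M/D-driven tumors and at 63.5, 63.8 and 62.7 CPM in untreated AT3 tumors (1.43 ± 0.52, SE, adjusted p = 0.043 by limma). With NAM, it was at 31.8, 119, 228 and 187 CPM in M/D-driven and 75.2, 114 and 118 CPM in AT3 tumors, and was called only without tumor 1.

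The balance of phases was compared between the models as a description, without a test, and lay apart for the members but not for other genes of the pathway. On a common scale, with log2(CPM + 1) centered per gene over the 14 tumors, the G1/S level minus the G2/M level ranged from 0.02 to 0.68 in M/D-driven tumors without and from -0.0014 to 0.66 in those with NAM, against -0.48 to -0.16 and -0.37 to -0.31 in AT3 tumors. All 8 M/D-driven tumors were above all 6 AT3 tumors. The means differed by 0.58 between untreated and by 0.62 between NAM-treated tumors, 0.57 and 0.62 with the length trend removed, and 0.34 and 0.45 when Ccnd1, Ccnd2, Ccnd3, Cdk4 and Cdk6 were left out. In the latter case M/D-driven tumors were at -0.08 to 0.51 and AT3 tumors at -0.35 to -0.09, so that the models nearly met. The 35 other G1/S and 35 other G2/M genes of the pathway gave balances of -0.11 to 0.47 in M/D-driven and -0.26 to -0.05 in AT3 tumors, which overlapped. With NAM, the balance within a model changed by 0.03 in M/D-driven and by -0.01 in AT3 tumors, which is less than the SD between tumors of a group (0.30 in untreated M/D-driven and 0.19 in untreated AT3 tumors). In AT3 tumors, the G1/S and the G2/M level were both 0.30 higher with NAM (0.16 and 0.17 with the length trend removed).

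**Figure D4:**
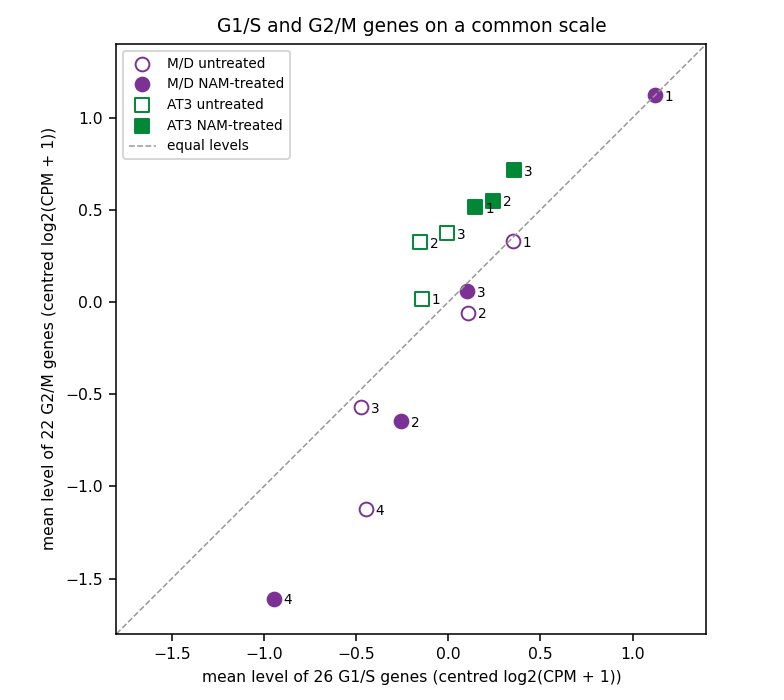
Mean level of 22 G2/M genes (vertical axis) against that of 26 G1/S genes (horizontal axis) in each of 14 tumors, as log2(CPM + 1) centered per gene over all tumors, with replicate numbers beside the points. M/D-driven tumors (circles) lie on or below the dashed line of equal centered levels and AT3 tumors (squares) above it, and filled symbols are NAM-treated. Through the centering, the line marks the mean balance of these 14 tumors and not equal expression of both phases.

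The brakes of the cycle and other genes of both phases were read from the same fits. Of 15 brakes, 0 were called with NAM in the fit of all M/D-driven tumors, which includes NAM-treated tumor 1. Of all genes, 3.03% were called higher and 3.19% lower in that fit. Cdkn1a (p21), the Cdk inhibitor induced by p53, was at 22434, 6598, 20554 and 43640 normalized counts in untreated and at 2033, 40649, 15291 and 5851 in NAM-treated M/D-driven tumors, a wide overlap. Cdkn2a, which encodes p16 and Arf, was at 403 to 2203 in untreated M/D-driven tumors, at 9267 in NAM-treated tumor 1 and at 643 to 1016 in the other 3. In AT3 tumors, Cdkn2a was at 3194, 2402 and 2993 in untreated and at 2062, 1812 and 1762 in NAM-treated tumors. It was called lower (log2 fold change -0.60 ± 0.21, SE), but had -0.04 with the length trend removed. E2f7, a partner of E2f8 in repression, rose from 164, 288 and 192 to 330, 707 and 953 normalized counts in AT3 tumors (1.53 ± 0.41, called also with the length trend removed), and Rbl2 (p130), a pocket protein of DREAM, from 1303, 1232 and 1130 to 1515, 2389 and 2652 (0.80 ± 0.25, not called with the trend removed). Cdkn1a had a log2 fold change of -0.43 in AT3 tumors and did not pass. E2f7 and Rbl2 were named by smallest p, so they do not give the share of brakes called in AT3 tumors, where 12.2% of all genes were called higher and 10.9% lower. For Rbl2 and Fbxw7, a ubiquitin ligase subunit that targets cyclin E, the NAM effect was lower in M/D-driven than in AT3 tumors (-1.07 and -0.93), which was lost with the length trend removed (-0.54 and -0.49). In the interaction, 7.9% of all genes were called lower, and these named brakes do not give the share of brakes called.

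Of 35 other G1/S genes, 0 were called in M/D-driven tumors (3.03% of all genes higher and 3.19% lower). In AT3 tumors, 8 were higher and 0 lower with NAM (12.2% and 10.9% of all genes). Clspn (claspin), a mediator of the replication checkpoint, rose from 56.5, 114 and 52.1 to 148, 337 and 454 normalized counts. Its log2 fold change was 2.01 ± 0.48 (SE), and that of Dtl, a receptor of the ubiquitin ligase that degrades Cdt1, was 0.92 ± 0.23. Of 35 other G2/M genes, 0 were called in M/D-driven tumors, and 12 were higher and 1 (Pttg1, securin) lower in AT3 tumors. Gas2l3, a cytoskeletal linker of late mitosis, went from 49.3, 47.7 and 47.2 to 129, 246 and 373 normalized counts (2.22 ± 0.41, SE). The NAM results of both lists are given without removal of the length trend, and with NAM-treated M/D tumor 1 in the fit. Between untreated tumors of both models, 5 of 15 brakes were higher and 3 lower in M/D-driven tumors, with differences of 3.59 for Cdkn2b (p15) and 1.76 for Fbxw7 on log2(CPM + 1). Of 35 other G1/S genes 3 were higher and 7 lower, and of 35 other G2/M genes 1 and 6, where 25% of all genes were higher and 17% lower. Among the lower ones, Tk1 and Prim1 had differences of -1.66 and -1.38, and Pttg1, Psrc1 and Cks2 of -1.24, -2.31 and -1.78.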

How the data were processed

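The authors aligned reads with STAR 2.4.0 on mm10, counted those in constitutive regions of Mouse FAST DB genes, and divided counts by DESeq2 size factors within each model. The deposited values are therefore a normalized signal per gene and tumor. Members, gene lists and motifs were chosen with earlier results of these data known. Dividing the values of a tumor by the smallest above 0 gave whole reads for 100% of values (tolerance 0.01), and 0 columns were left unmapped. Linear models with a mean-variance trend (limma 3.58.1, R 4.3.3) were fitted to log2(normalized count + 1), keeping genes whose mean reached 10 in some group. Calls needed a fold change of 1.5 or more and a p of 0.05 or less. Both thresholds are those of the study, whose methods do not say whether p was adjusted. Its figure captions for these NAM comparisons report adjusted p values. The unadjusted p was used here, with the Benjamini-Hochberg adjusted p over all genes tested given beside it. Levels were compared between models on log2(CPM + 1) of recovered reads with TMM factors (edgeR 4.0.16). Mean levels over the genes of a phase received no test.

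Alternatives were pseudocounts of 0.5 and 5, no filter or a minimum group mean of 50, TMM, upper-quartile or DESeq2 factors, an offset of 0.1 CPM, edgeR quasi-likelihood and DESeq2 1.42.0 Wald tests on recovered reads, blocking by replicate number, 1 fit of all 14 tumors, class medians in place of means, removal of the trend that each tumor showed with length and GC content of transcripts (spline with 4 degrees of freedom, longest GENCODE transcript on GRCm38), and each tumor left out in turn. For the mean levels, removal of the trend and of the D cyclin class were chosen after seeing the data, and so were the counts without NAM-treated M/D tumor 1. Lengths were found for 85.1% of genes tested in M/D-driven and 85.2% in AT3 tumors. Where a shorter transcript than the longest is expressed, the trend may be removed only in part, also in the comparison of the models. Fits were tested on simulated data. Every member is described through its class; values in every tumor are given for 11 members listed by name (Mki67, Ccnd1, Ccnd2, Ccne1, E2f1, Mcm2, Rrm2, Cdk1, Ccnb1, Foxm1 and Plk1) and for members past the thresholds. For the model comparison, members past the thresholds in both contrasts were named, and of other lists up to 3 genes by smallest p, with Cdkn1a and Cdkn2a; Ccnd3 and Cdk6 in M/D-driven tumors, Ccnd1 between models and Fbxw7 were also named after their values were seen. The study gives its n as mice, and p values measure the spread between tumors. Python 3.11.15 with numpy 2.4.6 and pandas 2.3.3 served for tables, and matplotlib 3.10.9 for plots.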

Additional observations from a re-analysis of the deposited data

Results flagged for a closer look

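In groups of 4 tumors, 50 sets of values were searched for a tumor whose gap to its nearest neighbor passed Dixon's critical value, as a share of the range of the group, which chance alone gives for about 1 set in 20. The sets did not hold every member in both groups, so other members can lie as far out. Ccnd3, which was not flagged, had 13730 normalized counts in NAM-treated M/D tumor 1 and 2091 to 2713 in the other NAM-treated M/D tumors. For Ccne1 in untreated M/D-driven tumors, the gap of tumor 1 (1220 normalized counts) was 0.870 of the range. For Mcm2 in M/D-driven tumors with NAM, the gap of tumor 1 (21403 normalized counts) was 0.830 of the range. This is the tumor with the lowest sum of epithelial and the highest sum of precursor lymphocyte markers, and their part in this value was not tested. The NAM effect on E2f2 differed between models by -1.87 on the log2 scale in the interaction test.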

How the results depend on the processing

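In AT3 tumors, the count of members higher with NAM was 7 with the length and GC trend removed and 2 in 1 fit of all 14 tumors, and that of members lower was 0 with TMM rescaling, 3 with the trend removed and 0 in 1 fit of all 14 tumors. Members lower in the interaction numbered 2 with TMM, 0 with edgeR, 0 with DESeq2 and 0 with the trend removed. Between untreated tumors of the models, members higher in M/D-driven tumors numbered 2 with upper-quartile factors and 1 with the trend removed, and members lower 23 with upper-quartile factors, 16 with DESeq2 and 19 with the trend removed. Between NAM-treated tumors, it was 2 higher with DESeq2, and 13 lower with upper-quartile factors, 3 with edgeR and 4 with DESeq2. The G1/S level of AT3 tumors, 0.30 higher with NAM, was 0.38 higher with class medians and 0.16 with the trend removed, an alternative chosen after seeing the data. In AT3 tumors, the log2 fold change of Ccne1 turned to 0.013 with TMM and 0.21 with the trend removed, and that of Mki67 to -0.41 with the trend removed. For these changes the cause was not tested.

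With single tumors left out, members lower with NAM in M/D-driven tumors numbered 0 to 2, members higher in AT3 tumors 3 to 17 and members lower 0 to 7, members higher in the interaction 0 to 4 and lower 0 to 6, members higher between untreated tumors 3 to 7 and lower 5 to 14, and members higher between NAM-treated tumors 1 to 2 and lower 3 to 32. The NAM change of the level in M/D-driven tumors spanned -0.23 to 0.48 for G1/S, -0.35 to 0.58 for G2/M and -0.10 to 0.18 for their difference, which spanned -0.09 to 0.09 in AT3 tumors. Log2 fold changes in M/D-driven tumors spanned -0.36 to 0.66 for Ccnb1, -0.89 to 0.036 for Ccnd1, -0.96 to -0.16 for Ccnd2, -0.034 to 0.78 for Ccne1, -0.27 to 0.62 for Cdk1, -0.074 to 0.30 for E2f1, -0.44 to 0.38 for Foxm1, -0.050 to 0.81 for Mcm2, -0.39 to 0.38 for Mki67, -0.14 to 0.43 for Plk1 and -0.23 to 0.86 for Rrm2, and in AT3 tumors -0.26 to 0.22 for Ccne1, -0.53 to -0.11 for Cdk1 and 0.053 to 0.78 for Mki67.

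Replicate numbers showed no pairing in M/D-driven tumors: deviations of tumors with the same number had a mean correlation of -0.18, against 0.05 for other numbers. In AT3 tumors, these values were 0.07 and -0.04. Of 8 M/D-driven and 6 AT3 tumors, 2 and 3 correlated best with their own number, which does not settle pairing in AT3 tumors. With the replicate block, 3 members were lower in the interaction, and counts with NAM stayed at 0 in M/D-driven tumors and at 11 higher and 1 lower in AT3 tumors, where 2 members (Cenpe and Foxm1) passed a limma adjusted p of 0.05 with the block (6.72% of all genes) and 0 without it (0.00519%). With 3 or 4 tumors a group, small differences were not detectable.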
